A study of Mus musculus with 4 samples.

Results

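Oligodendrocyte precursors were described here as 119 of 6158 nuclei from the hypothalamus of mice about 18 months old, 67 in library A and 52 in library B. The members were chosen by measured counts. A nucleus was taken as a precursor when the unique molecular identifiers (UMIs, counts of distinct captured RNA molecules) of Pdgfra, Cspg4, Vcan, Gpr17, Neu4 and C1ql1 summed to at least 3 and to at least 0.25% of its total. At least 1 of those UMIs had to come from Pdgfra, Cspg4 or Gpr17. The design set mice whose hypothalamus received hypothalamic stem cells, made from human pluripotent cells, beside control mice. Single-nucleus RNA profiles of frozen whole hypothalamus were deposited for 2 samples labelled transplanted and 2 labelled control. The labels give no strain, sex, dose or time after transplantation. Of the control barcodes, 3997 of replicate 1 and 2144 of replicate 2 (99.7% of each) were also in the transplanted matrix of the same number, while the 2 control matrices shared 4. The barcodes of all 67 and 52 precursors of the control matrices were in the transplanted matrices, where 57 and 47 of them also met the rule. Their counts were not identical there, with a median correlation of log profiles per nucleus of 0.879 and 0.867. Transplanted and control animals could therefore not be compared, and every value below comes from the control-labelled matrices, called library A (replicate 1) and library B (replicate 2). Which of the labels these nuclei belong to could not be worked out, so they may come from transplanted or from control mice. The title of library A joins 2 animal codes, and the labels do not say whether those nuclei were pooled.

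Oligodendrocyte precursors, also called NG2 glia after the proteoglycan that Cspg4 encodes, are glia that tile the grey and white matter of the adult brain. They respond to platelet-derived growth factor through the receptor encoded by Pdgfra, divide slowly, and can differentiate through a committed stage that expresses Gpr17, Bcas1 and Enpp6 into oligodendrocytes, the cells that make myelin. They receive synaptic contacts from neurons and carry glutamate and GABA receptors. In the hypothalamus they lie in the median eminence and around neurons that control feeding and hormone release.

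Precursors made up 1.67% of the 4008 nuclei of library A (exact 95% interval 1.30 to 2.12) and 2.42% of the 2150 nuclei of library B (1.81 to 3.16), a mean of 2.05 ± 0.528% (SD, n = 2). Their counts summed to 75267 (library A) and 72621 (library B) UMIs, so that 3 UMIs in a single library stood for 39.9 and 41.3 CPM (the UMIs of a gene over the total of its sum, scaled to a common total). A precursor held a median of 1129 (library A) and 1222 (library B) UMIs, against 1833 and 2078 in all other nuclei. Other classes were set by similar rules on their own markers, which gave 283 and 227 oligodendrocyte nuclei with medians of 673 and 681 UMIs, 284 and 165 astrocyte nuclei with 760 and 836 UMIs, and 1834 and 836 neuron nuclei with 2311 and 2645 UMIs. With each nucleus thinned to 500 UMIs, precursors held a median of 401 and 396 genes, against 372 and 369 in oligodendrocyte nuclei, 387 and 379 in astrocyte nuclei and 400 and 404 in neuron nuclei. All ± values are SDs over the 2 libraries, and intervals cover counting error only.

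The 6 genes of the rule chose the members, so their values are given as a description only. Vcan, which encodes the large matrix proteoglycan versican, was found in most precursors, with at least 1 UMI in 89.6% of those of library A and 90.4% of those of library B, against 5.07% and 4.34% of all other nuclei. Pdgfra, the receptor for platelet-derived growth factor, had 91 (library A) and 101 (library B) UMIs and was found in 79.1% and 82.7% of precursors, against 0.787% and 1.001% of all other nuclei. Cspg4, the NG2 proteoglycan, had 43 and 35 UMIs and was found in 47.8% and 44.2% of precursors. The sialidase gene Neu4, with 27 and 18 UMIs, was found in 37.3% and 30.8% of them. C1ql1, a secreted C1q-related protein, had 14 and 17 UMIs in 19.4% and 30.8% of them. Gpr17, a receptor of the committed stage, had 23 (library A) and 48 (library B) UMIs. It was found in 32.8% of the precursors of library A and 57.7% of those of library B, and 1 nucleus of library A and 9 of library B held at least 2 Gpr17 UMIs.

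Most precursors showed a subset of these genes. None of the 119 held all 6, 12 held 5, 27 held 4, 53 held 3, 26 held 2 and 1 held 1. Pdgfra and Gpr17 were found together in 35 nuclei, Pdgfra without Gpr17 in 61, Gpr17 without Pdgfra in 17 and neither in 6. Pdgfra and Cspg4 were found together in 41. The 6 genes summed to a median of 5 UMIs per nucleus in library A and 6 in library B, with highest values of 12 and 16.

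**Figure D1:**
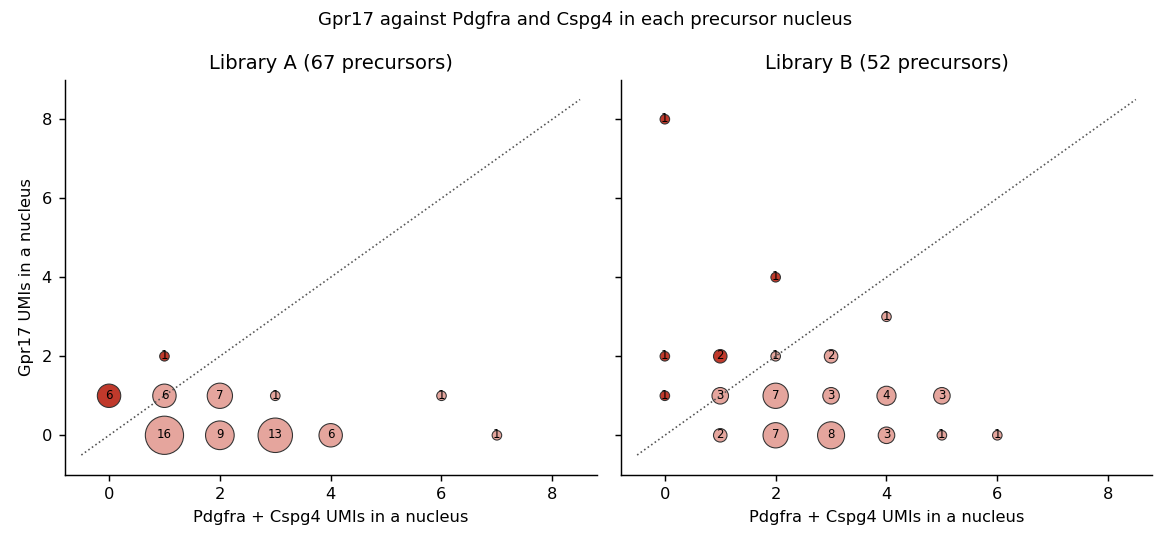
Gpr17 UMIs (vertical axis) against the summed UMIs of Pdgfra and Cspg4 (horizontal axis) in each precursor, with the number of nuclei written on each circle and sized by it, for library A and library B. Nuclei above the dotted line of equal counts, drawn dark, are the 7 of library A and 6 of library B in which Gpr17 leads, and 1 nucleus of library B held 8 Gpr17 UMIs.

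The label was checked on 8 lineage genes that the rule did not use, namely Lhfpl3, Tnr, Ptprz1, Bcan, Olig1, Olig2, Sox10 and Sox6. Their summed level was 14216 CPM in precursors of library A and 14899 CPM in those of library B. All other nuclei had 1573 and 1567 CPM. At least 1 UMI of the 8 genes was held by every precursor, but also by 3110 of 3941 and 1635 of 2098 other nuclei. Nuclei just inside the threshold, with 3 marker UMIs, had 11991 CPM (16 nuclei) and 15589 CPM (8 nuclei), while those just outside, with 2 marker UMIs and the other conditions met, had 9663 CPM (8 nuclei) and 10526 CPM (3 nuclei). At the limit on the share, nuclei between 0.25% and 0.35% had 12519 CPM (16 nuclei) and 14429 CPM (13 nuclei), and nuclei between 0.15% and 0.25% had 12786 CPM (13 nuclei) and 11606 CPM (9 nuclei). The rule therefore left out some nuclei with these 8 genes summed to nearly the level of the members. Most of the summed UMIs of precursors came from Lhfpl3, Tnr, Ptprz1 and Sox6. These had 470, 185, 213 and 133 of 1070 UMIs in library A and 358, 266, 200 and 147 of 1082 in library B. Ptprz1 and Sox6 were also found in many astrocyte nuclei and Lhfpl3 in part of the neuron nuclei, as given below.

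Markers of other cell types were lower in precursors than in the cell types they mark, but not always lower than elsewhere. The 12 neuron markers summed to 744 and 730 CPM, against 9737 and 10794 CPM in neuron nuclei, 512 and 484 CPM in oligodendrocyte nuclei and 470 and 401 CPM in astrocyte nuclei, and Slc32a1 was at 0. The 12 astrocyte markers summed to 890 and 799 CPM, against 16238 and 15726 CPM in astrocyte nuclei, 310 and 231 CPM in oligodendrocyte nuclei, 117 and 124 CPM in neuron nuclei and 648 and 740 CPM in all other nuclei, with 5 of them at 0 (Aqp4, Gfap, Gjb6, Ntsr2 and S1pr1). The 20 myelin genes summed to 638 and 771 CPM, against 17812 and 20618 CPM in oligodendrocyte nuclei, 298 and 571 CPM in astrocyte nuclei, 134 and 178 CPM in neuron nuclei and 669 and 1070 CPM in all other nuclei, with Mog, Mal, Opalin, Ermn and Aspa among the 9 at 0. The 12 microglia markers summed to 93.0 and 151 CPM, against 9638 and 9340 CPM in microglia nuclei. Oligodendrocyte nuclei had 47.0 and 63.4 CPM of them, astrocyte nuclei 113 and 138 CPM and all other nuclei 183 and 201 CPM. In precursors 4 of the 12 had any UMI, and Csf1r, C1qa, C1qb and C1qc were among those at 0. Tanycyte markers summed to 13.3 and 13.8 CPM, with 9 of 10 at 0. Of 16 vascular and leptomeningeal markers, 14 were at 0. The rest, Dcn and Slc6a13, gave 5 UMIs (66.4 CPM) to precursors of library A and none to those of library B. All other nuclei had 19.5 and 37.5 CPM of this list, oligodendrocyte nuclei 0 and 11.5 CPM and astrocyte nuclei 101 and 158 CPM. The list was therefore above the level of all other nuclei for library A precursors and below it for library B precursors. The summed astrocyte, neuron and microglia markers were thus higher in precursors than in oligodendrocyte nuclei of both libraries. The summed myelin genes were higher in precursors than in astrocyte and neuron nuclei. Slc1a2 alone gave 36 (library A) and 41 (library B) of the 67 and 58 astrocyte marker UMIs in precursors. Of the 119 precursors, 1 also met the rule of another class, the vascular one. No doublet caller was run.

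Lhfpl3, a tetraspan membrane protein gene typical of precursors, was the most widely found gene of the 8 after thinning to 500 UMIs. It was then found in 91.0% of precursors of library A and 86.5% of those of library B, against 1.06% and 0.881% of oligodendrocyte nuclei, 4.93% and 7.88% of astrocyte nuclei and 30.5% and 30.1% of neuron nuclei. Tnr, the matrix glycoprotein tenascin-R, was found in 62.7% and 73.1% of precursors, against 1.06% and 0.441% of oligodendrocyte nuclei and 13.7% and 15.6% of neuron nuclei. Ptprz1, a receptor phosphatase that is also a chondroitin sulfate proteoglycan, was shared with astrocytes. It was found in 67.2% and 78.8% of precursors and in 57.0% and 56.4% of astrocyte nuclei, against 0.353% and 0% of oligodendrocyte nuclei. Sox6, a transcription factor that holds precursors undifferentiated, was likewise found in 46.3% and 57.7% of precursors and 32.7% and 40.6% of astrocyte nuclei, against 0% and 1.76% of oligodendrocyte nuclei. Without thinning, Ptprz1 was found in more precursors of library B than Lhfpl3 was (98.1% against 92.3%).

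The transcription factors of the whole oligodendrocyte lineage were found less widely, at low counts. Sox10, required for oligodendrocyte differentiation, was found in 11.9% and 5.77% of thinned precursors, against 8.48% and 8.81% of oligodendrocyte nuclei and 0% and 0% of astrocyte nuclei. Olig1 was found in 10.4% and 17.3% of them and Olig2, a fate determinant of the lineage, in 4.48% and 19.2%. Without thinning, Olig2 had 5 UMIs in 7.46% of the precursors of library A (exact 95% interval 2.47 to 16.6) and 19 UMIs in 26.9% of those of library B (15.6 to 41.0).

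**Figure D2:**
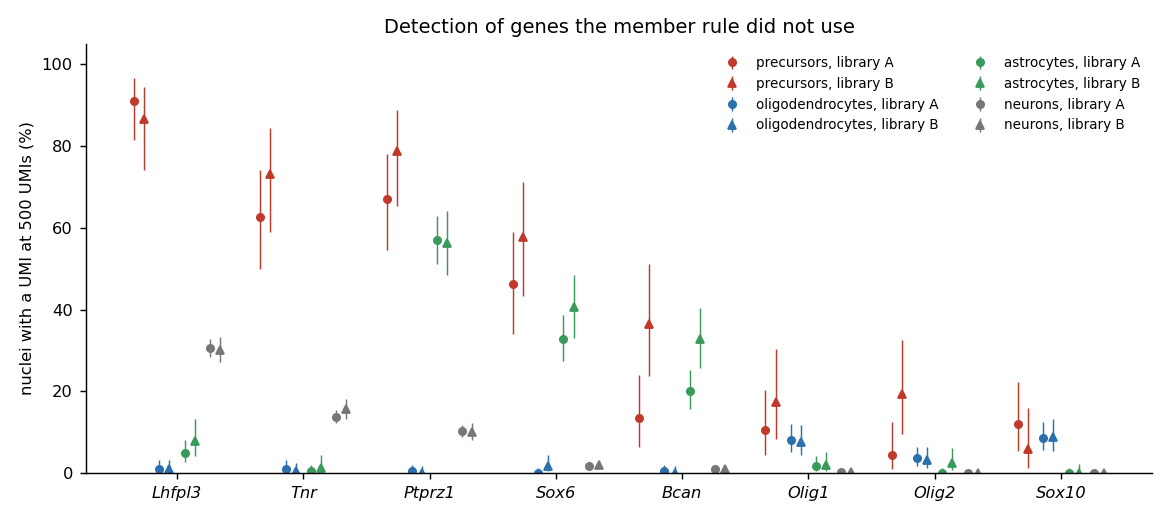
Share of nuclei with at least 1 UMI of each gene after thinning to 500 UMIs, in precursors, oligodendrocyte, astrocyte and neuron nuclei of both libraries, with exact 95% binomial intervals. Lhfpl3 was found in 91.0% and 86.5% of precursors, and Ptprz1 and Sox6 were found in both precursors and astrocyte nuclei.

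Counts were then summed per library over precursors and over all other nuclei and compared gene by gene with edgeR's quasi-likelihood test, with the library as a block and Benjamini-Hochberg adjustment over all genes tested at a threshold of 0.05. Of 6329 genes tested, 23.4% were called, of which 749 (11.8% of those tested) were higher and 731 (11.6%) lower in precursors, and the median log2 difference over all of them was -0.05. DESeq2 called 594 higher and 290 lower, and without the filter on low counts edgeR called 434 higher and 998 lower. The fit had 4 sums and 1 residual degree of freedom, so its p-values lean on counting error and on the spread shared over genes. A gene could also pass the filter through the precursor sums alone, so that counts over the tested members of a gene list are descriptions.

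The 10 genes higher in precursors with the smallest p were Lhfpl3, Sox2ot, Tnr, Sox6, Ptprz1, Xylt1, Epn2, Lrrc4c, Gm38505 and Arhgap31. Sox6 and Ptprz1 were also found in many astrocyte nuclei, as given above. Against these the log2 difference of Sox6 was 0.94 in library A and 0.99 in library B. Lhfpl3 had 470 UMIs in precursors of library A and 358 in those of library B, or 5587 ± 930 CPM, against 810 ± 60.3 CPM in all other nuclei, a log2 difference of 2.79 (SE 0.09, edgeR adjusted p = 3.44e-153). Sox6 had 133 and 147 UMIs, or 1896 ± 182 CPM, against 98.6 ± 5.72 CPM (log2 4.27, SE 0.16, edgeR adjusted p = 2.11e-127). Both genes were higher in precursors of both libraries. Xylt1, the xylosyltransferase that starts chondroitin and heparan sulfate chains, had 104 and 162 UMIs, or 1806 ± 600 CPM, against 115 ± 33.1 CPM (log2 3.97, SE 0.16). Arhgap31, a GTPase-activating protein for Rac and Cdc42, had 60 and 50 UMIs, or 743 ± 76.8 CPM, against 18.0 ± 3.30 CPM (log2 5.36, SE 0.26). Epn2, an endocytic adaptor, had 1815 ± 237 CPM, against 120 ± 11.9 CPM (log2 3.92, SE 0.16). Lrrc4c, the netrin-G ligand NGL-1, was also abundant in the sum over all other nuclei, with 8776 ± 1117 CPM in precursors, against 2626 ± 317 CPM in that sum (log2 1.75, SE 0.08).

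Precursor surface and secreted genes were mostly higher, on a list chosen with earlier results of these data known, so the counts are descriptions. Of its 25 genes, 23 were tested, 22 were higher and none was lower, with a median log2 difference of 2.78. Against oligodendrocyte nuclei 20 of 23 were higher and 1 lower (median 5.01). Against astrocyte nuclei 20 of 23 were higher and 2 lower (median 4.51). Among all genes tested, 11.8%, 16.9% and 12.4% were higher in these 3 comparisons. Nxph1, a secreted ligand of neurexins, had 200 (library A) and 196 (library B) UMIs, or 2678 ± 29.5 CPM, against 559 ± 23.0 CPM in all other nuclei (log2 2.27, SE 0.12). Pcdh15, a protocadherin, had 398 and 357 UMIs, or 5102 ± 263 CPM, against 1647 ± 91.1 CPM (log2 1.64, SE 0.09).

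The genes lower in precursors than in all other nuclei with the smallest p were Snhg11, Kcnip4, Cntnap2, Meg3, Nkain2, Lingo2, Ube3a, Syt1, Ptprd and Galntl6, and several of them are abundant in neurons. Kcnip4, a subunit of A-type potassium channels, had 7 and 9 UMIs in precursors, or 108 ± 21.9 CPM, against 4675 ± 518 CPM (log2 -5.43, SE 0.19, edgeR adjusted p = 1.17e-139). Syt1, the calcium sensor of synaptic vesicle release, had 3 UMIs in each library, or 40.6 ± 1.03 CPM, against 1702 ± 98.6 CPM (log2 -5.38, SE 0.29). Meg3, a noncoding RNA, had 345 ± 37.4 CPM, against 5181 ± 755 CPM (log2 -3.90, SE 0.15). Snhg11, another noncoding RNA, had 71 and 23 UMIs in precursors, or 630 ± 443 CPM, against 12467 ± 6994 CPM in all other nuclei (log2 -4.32, SE 0.12). It was uneven between the libraries in both groups. Nkain2 was low in precursors, with 6 and 1 UMIs or 46.7 ± 46.6 CPM, against 15969 ± 3490 CPM in oligodendrocyte nuclei and 3048 ± 291 CPM in all other nuclei.

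Oligodendrocyte nuclei and astrocyte nuclei were compared with precursors in a second edgeR fit over 4 classes. Of 6448 genes tested, 29.8% were called against oligodendrocyte nuclei, of which 1089 (16.9% of those tested) were higher and 834 (12.9%) lower in precursors, with a median log2 difference of -0.02. Against astrocyte nuclei 24.1% were called, with 797 (12.4%) higher and 755 (11.7%) lower, with a median of -0.08. Of the marker lists of other cell types, 8 of 10 neuron markers were lower than in all other nuclei and none higher, and 1 of 5 astrocyte markers was higher and 1 lower. All 5 astrocyte markers tested against astrocyte nuclei were lower in precursors. The 1 microglia marker tested was not called against all other nuclei or astrocyte nuclei and was higher than in oligodendrocyte nuclei, and no tanycyte or vascular marker was tested. These comparisons all use the same precursor sums, so their values are given side by side and not as separate support. The shares of all genes tested that were called in each, given above, are the background for the list counts below.

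Genes higher in precursors than in oligodendrocyte nuclei with the smallest p included Lhfpl3, Csmd1, Lsamp, Kcnd2, Lrrtm4, Gpc5, Ptprz1, Tnr and Nrxn3, of which Nrxn3 and Lrrtm4 encode adhesion proteins of synapses. Csmd1, a large membrane protein gene, had 429 (library A) and 457 (library B) UMIs, or 5996 ± 419 CPM, against 34.3 ± 8.61 CPM in oligodendrocyte nuclei (log2 7.36, SE 0.23, edgeR adjusted p = 7.72e-82). Gpc5, a glypican, had 3410 ± 401 CPM, against 42.4 ± 13.4 CPM (log2 6.26, SE 0.24), but was lower than in astrocyte nuclei, which had 9752 ± 1492 CPM (log2 -1.61, SE 0.12). Lsamp, a cell adhesion protein of the immunoglobulin superfamily, had 11244 ± 1140 CPM, against 801 ± 16.8 CPM (log2 3.71, SE 0.13). Lower genes were Nkain2, Slc24a2, St18, Ptgds, Plcl1, Pex5l, Edil3, Prr5l, Tmeff2 and Pde4b. Ptgds, prostaglandin D synthase, had 5 and 2 UMIs in precursors, or 47.0 ± 27.5 CPM, against 4531 ± 184 CPM in oligodendrocyte nuclei (log2 -6.69, SE 0.28). Prr5l, a binding partner of the mTORC2 kinase complex, was at 0 in precursors of both libraries, against 2370 ± 481 CPM, which makes it at least 115-fold lower with 3 counts over both libraries as the floor.

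Against astrocyte nuclei, the higher genes with the smallest p were Csmd1, Pcdh15, Anks1b, Lhfpl3, Lrrtm4, Opcml, Dscam, Tnr, Nxph1 and Csmd3. Pcdh15 had 5102 ± 263 CPM in precursors, against 23.4 ± 14.5 CPM in astrocyte nuclei (log2 7.55, SE 0.25, edgeR adjusted p = 1.4e-78). Dscam, a homophilic adhesion receptor, had 197 and 274 UMIs, or 3195 ± 817 CPM, against 15.9 ± 13.2 CPM (log2 7.34, SE 0.28). Anks1b, a postsynaptic scaffold protein, had 4524 ± 9.86 CPM, against 48.4 ± 15.1 CPM (log2 6.51, SE 0.23). Lower genes were Trpm3, Cst3, Slc6a11, Pitpnc1, Prex2, Slc1a3, Slc1a2, Gria1, Wdr17 and Gabrb1. Slc6a11, the GABA transporter GAT3, was at 0 in precursors, against 1903 ± 560 CPM in astrocyte nuclei, at least 89.5-fold lower with the same floor. Slc1a2, the glutamate transporter GLT-1, differed in degree. It had 36 and 41 UMIs in precursors, or 521 ± 61.0 CPM, against 3688 ± 628 CPM in astrocyte nuclei (log2 -2.93, SE 0.18) and 29.0 ± 7.86 CPM in oligodendrocyte nuclei (log2 4.07, SE 0.39).

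Lineage transcription factors were mostly higher than in all other nuclei and divided against both glial classes. Of 28 on the list, 20 were tested against all other nuclei. Of these 15 were higher and 1 lower (median log2 2.30), beside 11.8% and 11.6% of all genes tested. Against oligodendrocyte nuclei 8 of 23 were higher, 5 lower and 10 not called (median 0.79), and against astrocyte nuclei 10 of 23 were higher, 5 lower and 8 not called (median 0.70). Sox6, Sox5 and Zeb1 were higher than in oligodendrocyte nuclei. Sox6 had 1896 ± 182 CPM in precursors and 13.9 ± 13.0 CPM in oligodendrocyte nuclei (log2 7.07, SE 0.33). Sox5, a partner of Sox6, had 62 and 76 UMIs, or 935 ± 158 CPM, against 18.6 ± 6.35 CPM in oligodendrocyte nuclei (log2 5.57, SE 0.36). Zeb1, a zinc finger repressor, had 119 and 125 UMIs, or 1651 ± 99.2 CPM, against 11.5 ± 16.3 CPM (log2 7.20, SE 0.35).

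Factors of maturing oligodendrocytes went the other way. Myrf, which switches on myelin genes, had 4 and 5 UMIs in precursors, or 61.0 ± 11.1 CPM, against 503 ± 92.1 CPM in oligodendrocyte nuclei (log2 -3.15, SE 0.40, edgeR adjusted p = 3.76e-12). St18 had 0 and 4 UMIs in precursors, or 27.5 ± 38.9 CPM, against 5022 ± 267 CPM (log2 -7.64, SE 0.30), and Zfp536 had 244 ± 44.4 CPM, against 1615 ± 57.4 CPM (log2 -2.84, SE 0.23). Sox10, Olig1, Olig2 and Nkx2-2 were higher than in all other nuclei (log2 4.73, 4.57, 5.22 and 4.62), and none of them passed the test against oligodendrocyte nuclei. Sox10 had 23 and 13 UMIs, or 242 ± 89.5 CPM, in precursors, 175 ± 21.6 CPM in oligodendrocyte nuclei and 5.38 ± 1.68 CPM in astrocyte nuclei. Olig1 had 15 and 28 UMIs, or 292 ± 132 CPM, in precursors and 177 ± 10.9 CPM in oligodendrocyte nuclei. Sox9 and Nfia, both active in astrocytes, were lower than in astrocyte nuclei. Nfia had 104 and 57 UMIs in precursors, or 1083 ± 422 CPM, against 2673 ± 576 CPM in astrocyte nuclei (log2 -1.40, SE 0.16). The higher call of Nkx2-2 and the lower call of St18 against all other nuclei were lost under the stricter member rule of at least 5 UMIs and 0.5%, and that of St18 with DESeq2 as well.

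Matrix proteoglycans and the enzymes that build them were mostly higher than in all other nuclei and in oligodendrocyte nuclei. Of 27 genes, 18 were tested against all other nuclei. Of these 13 were higher and 3 lower (median log2 2.48), beside 11.8% and 11.6% of all genes tested. Against oligodendrocyte nuclei 13 of 19 were higher and 1 lower (median 5.998), and against astrocyte nuclei 8 of 19 were higher and 2 lower (median 1.22). Tnr had 185 (library A) and 266 (library B) UMIs, or 3060 ± 852 CPM in precursors, against 9.93 ± 5.89 CPM in oligodendrocyte nuclei, 30.2 ± 13.0 CPM in astrocyte nuclei, 340 ± 52.2 CPM in neuron nuclei and 307 ± 37.5 CPM in all other nuclei (log2 3.31, SE 0.12). Cspg5, or neuroglycan C, had 59 and 74 UMIs, or 901 ± 166 CPM, against 10.5 ± 1.51 CPM in oligodendrocyte nuclei, 154 ± 51.6 CPM in astrocyte nuclei and 64.4 ± 11.3 CPM in all other nuclei (log2 3.82, SE 0.21). It was the highest in precursors of each library among these classes. Bcan, or brevican, was shared with astrocytes. It had 26 and 51 UMIs, or 524 ± 252 CPM, in precursors and 534 ± 174 CPM in astrocyte nuclei, with 1 and 0 UMIs in oligodendrocyte nuclei. Ncan, or neurocan, had 12 and 15 UMIs in precursors and none in oligodendrocyte nuclei, at least 23.5-fold higher, and 121 ± 13.0 CPM in astrocyte nuclei, against 183 ± 33.3 CPM in precursors. The genes lower than in all other nuclei were Hs6st3, Ndst4 and Ndst3, enzymes that sulfate heparan sulfate. Hs6st3 had 4 and 2 UMIs, or 40.3 ± 18.1 CPM, against 688 ± 38.8 CPM (log2 -4.07, SE 0.35). The calls of Ndst4 and Ndst3 were lost with DESeq2 and under the stricter member rule. Hapln2, a link protein of myelinated axons, was at 0 in precursors, against 198 ± 54.2 CPM in oligodendrocyte nuclei.

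Genes of the committed stage were present in part. Of 18 genes, 10 were tested against all other nuclei. Of these 7 were higher and 2 lower (median log2 1.08), beside 11.8% and 11.6% of all genes tested. Against oligodendrocyte nuclei 5 of 13 were higher and 3 lower (median -0.17). Against astrocyte nuclei 3 of 13 were higher and 2 lower (median -0.016). Bcas1, which marks oligodendrocytes that are newly forming, had 17 (library A) and 58 (library B) UMIs. Its level was 512 ± 405 CPM in precursors, against 522 ± 207 CPM in oligodendrocyte nuclei, 6.57 ± 9.29 CPM in astrocyte nuclei and 30.04 ± 14.1 CPM in all other nuclei (log2 4.06, SE 0.29, edgeR adjusted p = 1.06e-39). The SD between libraries was nearly as large as the mean. Itpr2, an intracellular calcium channel, had 15 and 25 UMIs, or 272 ± 103 CPM, against 22.0 ± 17.8 CPM in oligodendrocyte nuclei (log2 3.58, SE 0.50). Ust, a sulfotransferase, had 37 and 39 UMIs, or 514 ± 32.1 CPM, against 70.7 ± 46.8 CPM (log2 2.83, SE 0.34).

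Bmp4 and Enpp6, also of the committed stage, were at or near 0. Bmp4 was found in 0 of 67 and 0 of 52 precursors, which, with 3 counts as the limit that a count of 0 allows, gives shares of precursors with a UMI of up to 4.48% and 5.77%. Enpp6 had 0 and 1 UMIs in precursors, against 17 and 20 in oligodendrocyte nuclei, a ratio of levels of 0.0706 (95% interval 0.00174 to 0.418). Tcf7l2, a Wnt effector, had 17 and 19 UMIs, or 244 ± 25.3 CPM, in precursors and 573 ± 38.9 CPM in astrocyte nuclei (log2 -1.33, SE 0.27), against 71.2 ± 2.24 CPM in all other nuclei (log2 1.78, SE 0.33). The last of these calls was lost under the stricter member rule. Its difference from oligodendrocyte nuclei, which had 128 ± 25.5 CPM, did not pass the test.

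Myelin genes were far below the level of oligodendrocyte nuclei. Of the 20 genes, 6 belong to the rule that chose oligodendrocyte nuclei, and 12 of the others were tested. Of these 11 were lower in precursors and none was higher (median log2 -5.96). Mbp, myelin basic protein, had 2 (library A) and 6 (library B) UMIs, or 54.6 ± 39.6 CPM, against 2198 ± 1116 CPM in oligodendrocyte nuclei (log2 -5.45, SE 0.30), 103 ± 86.4 CPM in astrocyte nuclei and 128 ± 83.1 CPM in all other nuclei. After thinning it was found in 1.49% and 3.85% of precursors and in 1.42% and 3.11% of neuron nuclei. The part of free RNA in these counts was not tested. The call of Mbp against all other nuclei (log2 -1.22, edgeR adjusted p = 0.0463) was lost in 6 of the alternative settings.

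Against all other nuclei 3 of the 9 myelin genes tested were higher and 1 lower (median log2 -0.06), beside 11.8% and 11.6% of all genes tested. Against astrocyte nuclei 5 of 18 were higher and 1 lower (median -1.22). The 3 higher than in all other nuclei were enzymes of myelin lipids, at low counts. Ugt8a, which makes galactosylceramide, had 12 and 8 UMIs, or 135 ± 34.8 CPM, in precursors, against 952 ± 170 CPM in oligodendrocyte nuclei (log2 -2.91, SE 0.29) and 44.2 ± 13.1 CPM in all other nuclei (log2 1.65, SE 0.44). Gal3st1, which makes sulfatide, had 4 and 5 UMIs, or 61.0 ± 11.1 CPM, against 68.3 ± 50.1 CPM in oligodendrocyte nuclei and 7.14 ± 3.60 CPM in all other nuclei (log2 3.13, SE 0.69). Against all other nuclei, the call of Ugt8a was lost under the stricter member rule and that of Gal3st1 without the filter on low counts. Fa2h, which hydroxylates fatty acids of myelin lipids, had 1 and 10 UMIs, or 75.5 ± 88.0 CPM, against 20.1 ± 10.7 CPM in all other nuclei (log2 1.86, SE 0.62). It was not called in 4 of the alternative settings.

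**Figure D3:**
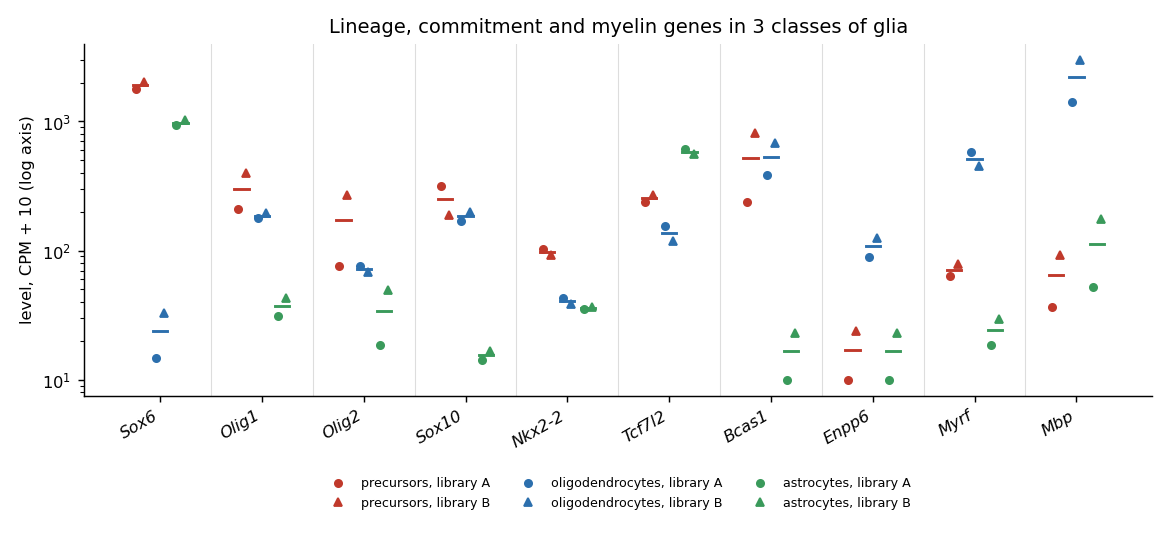
Levels (CPM + 10, log axis) of lineage, committed and myelin genes in precursors, oligodendrocyte nuclei and astrocyte nuclei, with 1 point per library and a bar at the mean. Sox10 averaged 242 CPM in precursors and 175 CPM in oligodendrocyte nuclei, while Mbp averaged 54.6 CPM in precursors and 2198 CPM in oligodendrocyte nuclei.

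Adhesion genes of synapses were mostly higher than in oligodendrocyte nuclei and went both ways against all other nuclei. Of 33 genes, 13 were higher and 12 lower than in all other nuclei (median log2 0.54), beside 11.8% and 11.6% of all genes tested. Against oligodendrocyte nuclei 21 of 31 were higher and 1 lower (median 2.74). Against astrocyte nuclei 15 of 31 were higher, 3 lower and 13 not called (median 1.07). Lrrtm4, a postsynaptic organizer, had 342 (library A) and 238 (library B) UMIs, or 3911 ± 896 CPM in precursors, against 55.4 ± 21.3 CPM in oligodendrocyte nuclei (log2 6.01, SE 0.22), 39.2 ± 27.6 CPM in astrocyte nuclei (log2 6.42, SE 0.23) and 2873 ± 114 CPM in all other nuclei (log2 0.45, SE 0.09). Cntnap2, a neurexin-like protein of axons, was low in precursors, with 8 and 22 UMIs or 205 ± 139 CPM, against 4827 ± 453 CPM in neuron nuclei and 4552 ± 524 CPM in all other nuclei (log2 -4.48, SE 0.17). Cntn5, a contactin, had 0 and 2 UMIs in precursors, a ratio of levels of 0.00924 to all other nuclei (95% interval 0.00112 to 0.0334).

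Vesicle release genes differed widely among themselves. Precursors were not tested against neuron nuclei, whose levels are given beside theirs. Of 26 genes, 21 were tested against all other nuclei. Of these 3 were higher and 10 lower (median log2 -0.86), beside 11.8% and 11.6% of all genes tested. Against oligodendrocyte nuclei 11 of 20 were higher and none lower (median 1.51), and against astrocyte nuclei 9 of 20 were higher and none lower (median 0.74). Rims1, a scaffold of the presynaptic active zone, had 57 and 47 UMIs, or 702 ± 77.9 CPM, in precursors, against 27.2 ± 18.6 CPM in oligodendrocyte nuclei (log2 4.65, SE 0.37), 17.1 ± 5.55 CPM in astrocyte nuclei (log2 5.19, SE 0.39), 937 ± 61.4 CPM in neuron nuclei and 835 ± 29.4 CPM in all other nuclei (log2 -0.24, SE 0.16, not called). After thinning Rims1 was found in 25.4% and 28.8% of precursors, against 0% and 2.20% of oligodendrocyte nuclei, 0.704% and 0.606% of astrocyte nuclei and 34.2% and 37.8% of neuron nuclei. Unc13c, a vesicle priming factor, had 38 and 27 UMIs, or 438 ± 94.1 CPM, in precursors, against 219 ± 0.205 CPM in neuron nuclei and 208 ± 5.43 CPM in all other nuclei (log2 1.08, SE 0.23). The stricter member rule ended that call. Snap25, a fusion protein of synaptic vesicles, had 18 and 10 UMIs, or 188 ± 71.7 CPM, against 797 ± 108 CPM in neuron nuclei and 612 ± 98.6 CPM in all other nuclei (log2 -1.70, SE 0.24). The neuron markers as a whole stood at 744 and 730 CPM in precursors, against 9737 and 10794 CPM in neuron nuclei.

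Glutamate receptor genes differed by subunit. Of 32 genes, 26 were tested against all other nuclei. Of these 5 were higher and 11 lower (median log2 -0.01), beside 11.8% and 11.6% of all genes tested. Against oligodendrocyte nuclei 14 of 25 were higher and 2 lower (median 1.70), and against astrocyte nuclei 14 of 25 were higher and 4 lower (median 1.505). Among the AMPA receptor subunits, Gria2, which makes these receptors impermeable to calcium, had 130 (library A) and 95 (library B) UMIs, or 1518 ± 296 CPM, in precursors, against 99.1 ± 26.0 CPM in oligodendrocyte nuclei (log2 3.82, SE 0.24), 1300 ± 7.93 CPM in astrocyte nuclei and 1696 ± 309 CPM in neuron nuclei. Gria4 had 133 and 88 UMIs, or 1489 ± 393 CPM, against 425 ± 103 CPM in oligodendrocyte nuclei (log2 1.70, SE 0.18), 62.2 ± 4.90 CPM in astrocyte nuclei (log2 4.54, SE 0.26), 1277 ± 185 CPM in neuron nuclei and 1182 ± 193 CPM in all other nuclei. Its call against all other nuclei (log2 0.33, edgeR adjusted p = 0.0344) was lost in 4 of the alternative settings, and its sign turned in another 2, without the filter and under the stricter member rule. Gria3 had 56 and 53 UMIs, or 737 ± 10.04 CPM, against 15.0 ± 2.58 CPM in astrocyte nuclei (log2 5.52, SE 0.40) and 696 ± 154 CPM in neuron nuclei. Gria1 was low, with 0 and 2 UMIs in precursors, against 220 and 299 in astrocyte nuclei, a ratio of levels of 0.0102 (95% interval 0.00123 to 0.0369).

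Among the other glutamate receptors, the NMDA receptor subunit Grin2b was at 0 in precursors of both libraries, against 555 ± 83.6 CPM in all other nuclei, at least 26.5-fold lower, though DESeq2 did not call it. Grin3a, an unusual NMDA receptor subunit, had 45 and 31 UMIs, or 512 ± 121 CPM, against 187 ± 26.3 CPM in all other nuclei (log2 1.46, SE 0.22), a call that the stricter member rule ended. Grm5, a metabotropic receptor, had 124 and 79 UMIs, or 1368 ± 396 CPM, against 24.6 ± 18.4 CPM in oligodendrocyte nuclei (log2 5.63, SE 0.31) and 88.0 ± 5.67 CPM in astrocyte nuclei (log2 3.91, SE 0.25). Grm3 had 2 and 4 UMIs, or 40.8 ± 20.2 CPM, against 1874 ± 58.2 CPM in oligodendrocyte nuclei (log2 -5.63, SE 0.32) and 704 ± 16.6 CPM in astrocyte nuclei (log2 -4.22, SE 0.39). The kainate receptor subunit Grik1 had 35 and 27 UMIs, or 418 ± 65.9 CPM, against 160 ± 13.6 CPM in oligodendrocyte nuclei (log2 1.27, SE 0.29) and 376 ± 113 CPM in neuron nuclei. The first difference was no longer called under the stricter member rule.

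GABA receptor genes were mostly lower than in all other nuclei. Of 12 tested, 8 were lower and none higher (median log2 -1.41), beside 11.6% and 11.8% of all genes tested. Against oligodendrocyte nuclei 7 of 13 were higher and 1 lower (median 3.38). Against astrocyte nuclei 4 of 13 were higher and 5 lower (median -1.02). Gabrb1 had 26 and 22 UMIs, or 324 ± 30.05 CPM, in precursors, against 23.8 ± 7.10 CPM in oligodendrocyte nuclei (log2 3.70, SE 0.45), 2522 ± 333 CPM in astrocyte nuclei (log2 -3.06, SE 0.20) and 1218 ± 61.7 CPM in all other nuclei (log2 -1.90, SE 0.19). Gabrg3 had 47 and 45 UMIs, or 622 ± 3.39 CPM, against 188 ± 42.8 CPM in astrocyte nuclei (log2 1.61, SE 0.25).

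Ion channel genes had 3 of 32 tested higher and 13 lower than in all other nuclei (median log2 -0.66). Of all genes tested, 11.8% were higher and 11.6% lower. Against oligodendrocyte nuclei 17 of 31 were higher and 4 lower (median 2.29), and against astrocyte nuclei 15 of 31 were higher and 1 lower (median 1.71). Kcnd2, an A-type potassium channel, had 272 and 325 UMIs, or 4045 ± 609 CPM, in precursors, against 61.0 ± 19.8 CPM in oligodendrocyte nuclei (log2 5.97, SE 0.22) and 1697 ± 157 CPM in all other nuclei (log2 1.26, SE 0.09). Astrocyte nuclei had 3440 ± 217 CPM, which did not pass the test. Kcnj10, the inward rectifier Kir4.1 of glia, had 7 UMIs in each library, or 94.7 ± 2.40 CPM, in precursors, 77.2 ± 29.5 CPM in oligodendrocyte nuclei and 223 ± 102 CPM in astrocyte nuclei (log2 -1.30, SE 0.45). It stood at 12.8 ± 7.01 CPM in all other nuclei (log2 2.95, SE 0.59), a call lost under the stricter member rule. Kcnh7, a potassium channel of neurons, had 1 and 5 UMIs, or 41.1 ± 39.3 CPM, against 688 ± 92.9 CPM in all other nuclei (log2 -4.08, SE 0.35).

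**Figure D4:**
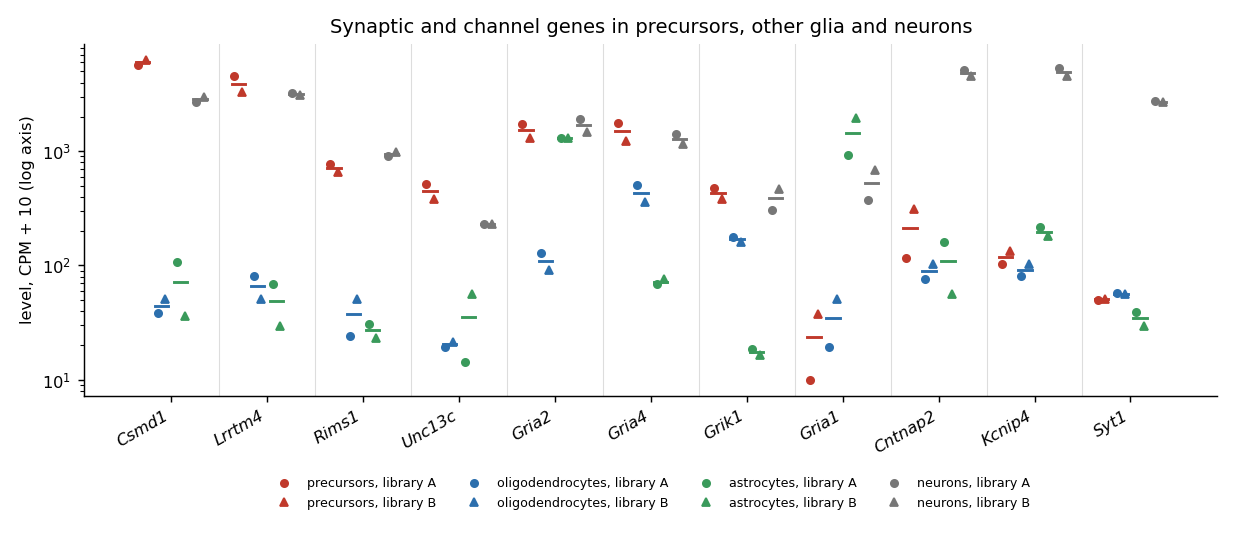
Levels (CPM + 10, log axis) of synaptic, receptor and channel genes in precursors, oligodendrocyte nuclei, astrocyte nuclei and neuron nuclei, with 1 point per library and a bar at the mean. Rims1 averaged 702 CPM in precursors and 937 CPM in neuron nuclei, against 27.2 CPM in oligodendrocyte nuclei and 17.1 CPM in astrocyte nuclei, while Syt1 averaged 40.6 CPM in precursors and 2693 CPM in neuron nuclei.

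Axon guidance genes were as often higher as lower than in all other nuclei, with 11 of 29 in each direction (median log2 -0.48). Of all genes tested, 11.8% were higher and 11.6% lower. Against oligodendrocyte nuclei 11 of 30 were higher and 8 lower (median 0.45), and against astrocyte nuclei 16 of 30 were higher and 5 lower (median 1.24). Ntn1, or netrin-1, had 11 (library A) and 30 (library B) UMIs, or 280 ± 189 CPM, in precursors, none in oligodendrocyte nuclei, 17.1 ± 5.55 CPM in astrocyte nuclei (log2 3.72, SE 0.55) and 10.4 ± 5.34 CPM in all other nuclei (log2 4.72, SE 0.42, edgeR adjusted p = 3.11e-26). Its receptor gene Dcc had 158 and 134 UMIs, or 1972 ± 180 CPM, against 648 ± 67.6 CPM in oligodendrocyte nuclei (log2 1.502, SE 0.16), 30.2 ± 13.0 CPM in astrocyte nuclei (log2 6.05, SE 0.28) and 1518 ± 144 CPM in all other nuclei (log2 0.38, SE 0.11). Sema3e, a secreted semaphorin, had 28 and 17 UMIs, or 303 ± 97.5 CPM, against 26.6 ± 2.35 CPM in all other nuclei (log2 3.52, SE 0.35), a call the stricter member rule ended. Efna5, an ephrin ligand, was at 0 in both libraries, against 648 ± 54.8 CPM in all other nuclei, at least 32.5-fold lower. DESeq2 did not call it.

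Growth factor receptors and ligands gave 4 of 21 tested higher and 3 lower than in all other nuclei (median log2 0.00). This was near the 11.8% higher and 11.6% lower among all genes tested. Against oligodendrocyte nuclei 11 of 25 were higher and 4 lower (median 0.93), and against astrocyte nuclei 8 of 25 were higher and 10 lower (median -0.29). Erbb4, a neuregulin receptor, had 214 and 201 UMIs, or 2806 ± 53.3 CPM, in precursors, 2094 ± 64.4 CPM in oligodendrocyte nuclei and 2690 ± 154 CPM in astrocyte nuclei, neither of which passed the test, against 1227 ± 38.7 CPM in all other nuclei (log2 1.20, SE 0.10). Nrg3, a neuregulin, had 185 and 142 UMIs, or 2207 ± 355 CPM, against 74.3 ± 25.4 CPM in oligodendrocyte nuclei (log2 4.84, SE 0.23), 95.5 ± 60.8 CPM in astrocyte nuclei (log2 4.35, SE 0.22) and 4726 ± 998 CPM in all other nuclei (log2 -1.09, SE 0.10). Nrg1 had 6 and 7 UMIs, or 88.1 ± 11.8 CPM, against 1673 ± 12.4 CPM in all other nuclei (log2 -4.24, SE 0.24). Fgfr1, a fibroblast growth factor receptor, had 3 and 4 UMIs, or 47.5 ± 10.8 CPM, in precursors, against 156 ± 12.3 CPM in astrocyte nuclei (log2 -1.81, SE 0.53). Egfr, the receptor for epidermal growth factor, was at 0 in precursors, against 57 and 59 UMIs in astrocyte nuclei, at least 14.6-fold lower, and Bmpr1b, a receptor for bone morphogenetic proteins, was also at 0, at least 23.2-fold lower than in astrocyte nuclei.

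Notch and Wnt signalling genes gave 5 of 12 tested higher and none lower than in all other nuclei (median log2 0.51). Of all genes tested, 11.8% were higher and 11.6% lower. Against oligodendrocyte nuclei 6 of 14 were higher and 1 lower (median 0.86), and against astrocyte nuclei 1 of 14 was higher and 5 lower (median -0.76). Maml2, a Notch coactivator, had 71 and 92 UMIs, or 1105 ± 229 CPM, in precursors, against 142 ± 38.0 CPM in oligodendrocyte nuclei (log2 2.82, SE 0.24) and 1077 ± 74.8 CPM in astrocyte nuclei, which did not pass the test. Rnf43, a ligase that removes Wnt receptors, had 9 and 11 UMIs, or 136 ± 22.6 CPM, against none in astrocyte nuclei, at least 17.6-fold higher, and 6.40 ± 0.277 CPM in all other nuclei (log2 4.40, SE 0.53). Daam2, a Wnt pathway gene of glia, was at 0 in precursors, at least 18.0-fold lower than in oligodendrocyte nuclei and at least 9.72-fold lower than in astrocyte nuclei.

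Receptors for hormones and metabolic signals, through which the hypothalamus senses the state of the body, went both ways. Of 38 genes, 21 were tested against all other nuclei, with 2 higher, 5 lower and 14 not called (median log2 -0.00), where 23.4% of all genes tested were called. Against oligodendrocyte nuclei 9 of 20 were higher and 1 lower (median 0.92), and against astrocyte nuclei 1 of 20 was higher and 7 lower (median -0.70). Rora, a nuclear receptor of the circadian clock, had 151 and 181 UMIs, or 2249 ± 344 CPM, in precursors, against 108 ± 46.7 CPM in oligodendrocyte nuclei (log2 4.22, SE 0.22) and 977 ± 187 CPM in all other nuclei (log2 1.21, SE 0.11). It was lower than in astrocyte nuclei, which had 3421 ± 439 CPM (log2 -0.70, SE 0.14). Thrb, a thyroid hormone receptor, had 17 and 19 UMIs, or 244 ± 25.3 CPM, against 89.5 ± 20.2 CPM in oligodendrocyte nuclei (log2 1.37, SE 0.38) and 563 ± 52.8 CPM in astrocyte nuclei (log2 -1.30, SE 0.27). Thra, the other thyroid hormone receptor, had 3 and 4 UMIs, or 47.5 ± 10.8 CPM, against 204 ± 69.8 CPM in oligodendrocyte nuclei (log2 -2.19, SE 0.50). The higher call of Thrb against oligodendrocyte nuclei was lost under the stricter member rule. Lepr, the leptin receptor, had 1 and 0 UMIs in precursors, too few for a test, against 162 and 60 in all other nuclei, or 15.5 ± 4.42 CPM.

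Dividing precursors were not detected at this depth. Mki67 and Top2a, which mark cells in division, were at 0 of 67 and 0 of 52 precursors, which with the same limit of 3 counts allows shares of up to 4.48% and 5.77% with a UMI. Of 39 cell cycle genes, 13 had any UMI in precursors, and the list summed to 279 and 275 CPM, against 263 and 213 CPM in oligodendrocyte nuclei, 390 and 289 CPM in astrocyte nuclei and 163 and 143 CPM in all other nuclei. Of 3 cell cycle genes tested against all other nuclei, 2 were higher, beside 11.8% of all genes tested. Both passed the filter on low counts only through the precursor sums, so this count is a description. Cdk6, a kinase of the first gap phase, had 4 and 5 UMIs, or 61.0 ± 11.1 CPM, in precursors, against 3.68 ± 0.332 CPM in all other nuclei (log2 4.04, SE 0.70). Ccnd1, cyclin D1, had 5 and 4 UMIs, or 60.8 ± 8.03 CPM, against 8.004 ± 0.922 CPM (log2 2.94, SE 0.69), a call lost without the filter and under the stricter member rule. Ccnd3, cyclin D3, was at 0, at least 7.95-fold lower than in astrocyte nuclei.

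Senescence genes gave no call against all other nuclei among the 4 of 20 tested with edgeR (median log2 0.15). The list summed to 518 and 289 CPM in precursors, against 372 and 310 CPM in all other nuclei, so the libraries fell on opposite sides. Against oligodendrocyte nuclei 1 of 4 was higher and 1 lower, and against astrocyte nuclei 1 of 4 was lower. Immune and stress genes summed to 1966 and 1707 CPM in precursors, against 2603 and 2745 CPM in oligodendrocyte nuclei, 6694 and 5669 CPM in astrocyte nuclei and 980 and 892 CPM in all other nuclei. Of 9 tested against all other nuclei, 2 were higher and none lower (median 0.44), beside 11.8% and 11.6% of all genes tested. Against oligodendrocyte nuclei 2 of 12 were higher and 3 lower (median -0.65), and against astrocyte nuclei 1 of 12 was higher and 5 lower (median -0.83). Apoe, a lipid carrier made by glia, had 56 and 49 UMIs, or 709 ± 49.0 CPM, in precursors, against 346 ± 24.4 CPM in oligodendrocyte nuclei (log2 0.94, SE 0.22), 3495 ± 150 CPM in astrocyte nuclei (log2 -2.39, SE 0.17) and 27.1 ± 5.52 CPM in neuron nuclei. The part of free astrocyte RNA in the Apoe counts was not tested, and the astrocyte markers in precursors stood at 890 and 799 CPM. Cd9, a tetraspanin, had 19 and 11 UMIs, or 202 ± 71.4 CPM, against 175 ± 18.7 CPM in oligodendrocyte nuclei and 15.0 ± 2.15 CPM in all other nuclei (log2 3.78, SE 0.45). Il33, an alarmin of oligodendrocytes, was at 0 in precursors, at least 29.0-fold lower than in oligodendrocyte nuclei.

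**Figure D5:**
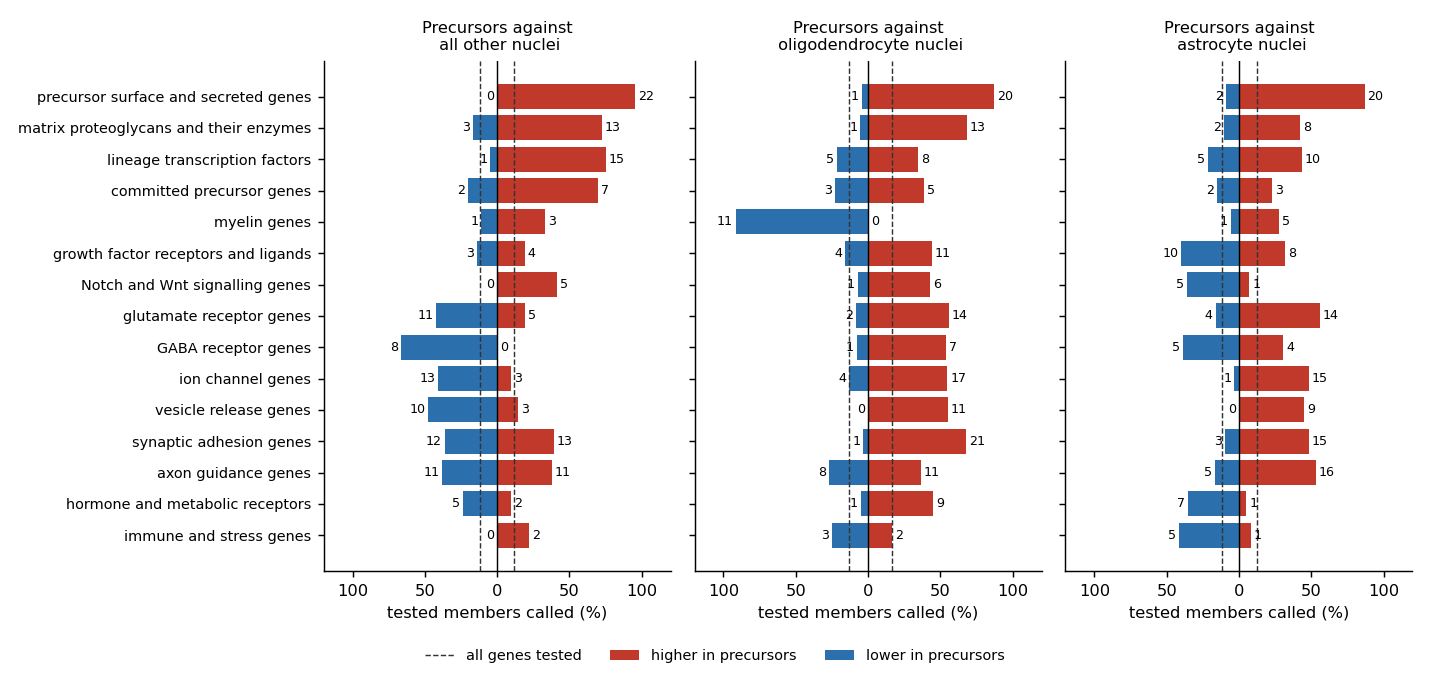
Share of the tested genes of each list that were higher (red, to the right) or lower (blue, to the left) in precursors in each comparison, with the number of genes beside each bar and dashed lines at the share among all genes tested. Of 23 surface and secreted genes 20 to 22 were higher in each comparison, while 11 of 12 myelin genes were lower against oligodendrocyte nuclei and 8 of 12 GABA receptor genes were lower against all other nuclei.

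Precursors were also divided by Gpr17. In 7 nuclei of library A and 6 of library B, Gpr17 UMIs outnumbered those of Pdgfra and Cspg4 together. These Gpr17-led nuclei were compared with the other 60 and 46 precursors. Most of the 7 held a single Gpr17 UMI, since only 1 precursor of library A held at least 2. Gpr17-led nuclei summed to 8303 (library A) and 6595 (library B) UMIs, so that 3 UMIs stood for 361 and 455 CPM. Of 2045 genes tested with edgeR, none passed the threshold (0%), 96 had an unadjusted p under 0.05, and DESeq2 also called 0. In the transplanted-labelled deposit of nearly the same nuclei 29 genes were called (3 higher and 26 lower), and 10 were called under the stricter member rule, all lower. The median log2 difference over these genes was -0.20, and it moved to 0.27 with library totals in place of TMM scaling, so single differences below that shift have no direction. Bcas1 had 2 and 10 UMIs in Gpr17-led nuclei, or 879 ± 902 CPM, against 15 and 48 UMIs in the other precursors, or 475 ± 356 CPM (log2 0.27, SE 0.63, edgeR adjusted p = 0.999). Bmp4 and Enpp6 were too low to test.

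Bcas1 was uneven between the libraries. It was found in 16 of 67 precursors of library A (23.9%, exact 95% interval 14.3 to 35.9) and in 26 of 52 of library B (50%, 35.8 to 64.2), with at most 2 UMIs in a nucleus of library A and 8 in a nucleus of library B. Within library B it was found in 6 of 9 precursors with at least 2 Gpr17 UMIs, 10 of 21 with 1 and 10 of 22 with none, at levels of 1204, 830 and 582 CPM. Within library A the numbers were 1 of 1, 3 of 21 and 12 of 45, at 574, 121 and 266 CPM. The 2 libraries carry the same label, and with 1 library each no test of their difference was possible. Oligodendrocyte nuclei, which hold Bcas1 at 522 ± 207 CPM, had 80 UMIs of it in library A and 116 in library B.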

How the data were processed

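The authors deposited raw counts, which per the file headers are UMIs of each gene in each barcode. Cell Ranger 5.0.1 and a human build (GRCh38) are named in the submitters' processing notes. The 32285 gene identifiers are of mouse, so no coordinates are given. The lowest UMI count of a barcode was 500 or 501. No doublet caller was run, and no barcode was removed. Some of the labels join animal codes, and whether the nuclei of those animals were pooled is not stated. What part of the spread between these libraries is technical was not tested. The p-values come from fits with the library as a block. They lean on counting error and on the spread shared over genes, and do not measure the spread between animals.

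The rule for members and the 22 gene lists (532 genes) were chosen with earlier results of these data known. Other classes needed at least 3 UMIs and 0.25% (0.5% for oligodendrocytes) of their markers, and a nucleus meeting several class rules entered no class. Counts were summed per library and class and tested with edgeR 4.0.16 in R 4.3.3 (quasi-likelihood, TMM, genes with a mean CPM of at least 25, or 100 for Gpr17-led nuclei), with a threshold of 0.05. Both sums of a pair come from 1 library, so the library was kept as a block. DESeq2 1.42.0 was an alternative. Genes of the compared rules were left out of calls. Named genes were the 10 smallest p per comparison and direction with the same sign in both libraries, the 3 smallest per list and direction, and 36 set genes. A few of these are not reported here. Shares of nuclei are given after thinning to 500 UMIs.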

Additional observations from a re-analysis of the deposited data

How the results depend on the processing

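The number of genes called between precursors and all other nuclei was 1480 and depended on the processing. It was 925 without the library as replicate block, 884 with DESeq2 and 303 under the stricter member rule, which kept 24 and 20 precursors and a mean share of 0.765% of nuclei. Fewer nuclei enter the sums under that rule. The cause of these changes was not tested, for that rule or for the other settings. The numbers called against oligodendrocyte and astrocyte nuclei stayed within 1.5 times of the main value in every alternative run. For Gpr17-led nuclei the 0 calls became 29 in the transplanted-labelled deposit (3 higher and 26 lower) and 10 under the stricter member rule (all lower), with the cause not tested. The share of precursors was 1.67% and 2.42% with 1 library left out. With 1 library no residual degree of freedom is left, so no number of calls could be given, and the log2 differences are values with no test. All 279 called differences of named genes kept their sign in each library, which the choice of some of them required. Of 24 that were not called, 7 had the opposite sign in at least 1 library.

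Of 279 called differences of named genes, 58 were lost under at least 1 alternative, 20 of them under the stricter member rule alone. Signs turned in 12 values. Under the stricter member rule these were Gria4 (-0.34), Grik1 (-0.28) and Syn2 (-0.45) against all other nuclei, Erbb4 against oligodendrocyte nuclei (-0.072) and Tcf7l2 in Gpr17-led nuclei (-0.77). Without the filter on low counts they were Gria4 (-0.00018) and Grik1 (-0.019) against all other nuclei, Gria2 against astrocyte nuclei (-0.010), and Tcf7l2 (-0.45) and Bcas1 (-0.23) in Gpr17-led nuclei. The last were Thrb against all other nuclei in the transplanted-labelled deposit (0.031) and Erbb4 against astrocyte nuclei with library totals (0.057). The cause was not tested. With 75267 and 72621 UMIs over all precursors, 3 UMIs in 1 library stood for 39.9 and 41.3 CPM, so levels below these rest on few counts.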
